A study of Mus musculus with 38 samples.

Results

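The tumour necrosis factor (TNF) superfamily ligands described here are the products of 10 mouse genes, namely Tnf, Lta, Ltb, Fasl, Tnfsf11, Tnfsf14, Tnfsf8, Tnfsf10, Tnfsf4 and Cd40lg. Their probe sets were found by gene symbol, and each gene had 1 probe set, so 10 of the 23410 probe sets with a gene name were members. Levels were log2 values from Affymetrix arrays of 5 CD8 T cell clones, and every clone was measured after stimulation and at rest. Activated cells had been on plates with an immobilised antibody against CD3, a chain of the T cell receptor complex, for 14 h (0.5 ug/ml), and dormant cells were resting. Clones sAg1 and sAg3 carry the phenotype label CD8IL13+ and belong to the type that the series design calls CD8γ13. Clones 8uvmo-2 and 8uvmo-3 carry the label CD8IL13- and are written IL13-negative below, and the design calls this type Tc1. CD8bm1 is an alloreactive CD8 clone. All cells were grown in RPMI medium with fetal bovine serum, and no strain, sex, age or engineered allele is given. A phenotype is thus represented by 2 clones, and alloreactive cells by 1 clone. There were 4 arrays in each of 8 groups and 3 in each of the 2 dormant IL13+ groups.

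Ligands of this superfamily are mostly membrane proteins that act as trimers on receptors of neighbouring cells, and some are released from the membrane by proteases. TNF and lymphotoxin alpha bind the TNF receptors, and lymphotoxin alpha also joins lymphotoxin beta in a membrane complex that binds the lymphotoxin beta receptor. FasL (Fasl) and TRAIL (Tnfsf10) trigger cell death through receptors with death domains, while LIGHT (Tnfsf14), OX40L (Tnfsf4), CD30L (Tnfsf8) and CD40L (Cd40lg) act as costimulators, and RANKL (Tnfsf11) drives osteoclast formation. In CD8 T cells, TNF and FasL are known as effector molecules that are made after the T cell receptor is engaged.

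Ltb, Tnf and Lta lie side by side on mouse chromosome 17, within the major histocompatibility complex. In the gene order of the GRCm38.p6 annotation only the microRNA gene Mir6973a stands between Ltb and Tnf, and Lta follows Tnf directly. Promoter windows of 250 bases before to 50 bases after the start were found in RefSeq (GRCm38.p6) for 8 of the 10 members, the others being Tnfsf4 and Cd40lg. The windows of these 3 neighbours are shown because activation moved Ltb one way and Tnf and Lta the other, and that of Tnfsf14 because it had the largest mean difference among the members. Capitals mark matches, on either strand, to the NF-kB core (GGG, any 5 bases, CC) and the AP-1 motif TGANTCA, and the coordinates are of GRCm38.p6.
Tnf, chr17:35201958-35202257, minus strand: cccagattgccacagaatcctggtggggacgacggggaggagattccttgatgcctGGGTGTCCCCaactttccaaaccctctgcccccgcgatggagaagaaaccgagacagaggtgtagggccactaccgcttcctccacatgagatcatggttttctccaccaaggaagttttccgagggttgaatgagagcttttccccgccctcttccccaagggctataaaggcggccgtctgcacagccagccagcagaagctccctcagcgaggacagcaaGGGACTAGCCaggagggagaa
Lta, chr17:35205302-35205601, minus strand: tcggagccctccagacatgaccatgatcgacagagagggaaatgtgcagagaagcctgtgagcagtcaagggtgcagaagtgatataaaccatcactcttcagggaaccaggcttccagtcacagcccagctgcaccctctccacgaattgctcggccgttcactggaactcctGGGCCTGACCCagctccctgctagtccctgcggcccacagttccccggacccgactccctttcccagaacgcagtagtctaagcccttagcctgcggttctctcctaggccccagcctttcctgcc
Ltb, chr17:35194257-35194556, plus strand: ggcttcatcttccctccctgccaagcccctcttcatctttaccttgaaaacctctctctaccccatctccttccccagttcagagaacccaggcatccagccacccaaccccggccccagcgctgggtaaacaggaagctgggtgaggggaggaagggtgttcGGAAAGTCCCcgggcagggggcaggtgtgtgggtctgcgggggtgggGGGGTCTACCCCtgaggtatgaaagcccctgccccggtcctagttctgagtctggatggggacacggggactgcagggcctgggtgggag
Tnfsf14, chr17:57194132-57194431, minus strand: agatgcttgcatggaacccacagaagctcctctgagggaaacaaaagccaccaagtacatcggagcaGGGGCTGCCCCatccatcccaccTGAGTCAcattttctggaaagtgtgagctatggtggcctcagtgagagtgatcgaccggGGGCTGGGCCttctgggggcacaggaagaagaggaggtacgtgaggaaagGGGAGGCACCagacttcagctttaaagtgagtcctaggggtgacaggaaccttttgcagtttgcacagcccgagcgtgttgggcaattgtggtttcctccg
The NF-kB core was present in 6 of the 8 member promoters, namely those of Tnf, Lta, Ltb, Fasl, Tnfsf11 and Tnfsf14, and in 50.8% of all 32851 promoters of this length. The AP-1 motif was found in 1 of the 8, that of Tnfsf14, against 7.81% of all promoters. All 8 held the NFAT core GGAAA, as did 61.3% of all promoters, and none held the CRE TGACGTCA or the Egr motif GCGNGGGCG (1.79% and 5.55% of all promoters). TATAAA stood in 3 of the 8, those of Tnf, Lta and Tnfsf11, and in 13.6% of all promoters. These matches describe letters in the window, not binding.

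The clones carried the T cell genes of their label. Group means of Cd3e ran from 12.50 to 13.44, of Cd8a from 11.22 to 12.83 and of Cd8b1 from 11.51 to 12.90. Cd4, the defining gene of the helper lineage, averaged 10.59 in activated and 10.45 in dormant sAg3, and 6.15 to 8.09 in the groups of the other clones. Of 5 measured B cell markers none reached 7 in any group, and of 11 macrophage markers 3 did; macrophages also make TNF. The mean over the macrophage markers was 5.99 to 6.81 in activated arrays and 5.67 to 6.51 in dormant arrays. Their median activation difference was 0.50, and 0.09 after centring on the array medians. On the mean of the clones 1 of them was called as lower and 0 as higher (background 1.64% and 4.57%). Among dormant arrays the list mean was 6.15 to 6.51 in sAg1 and 6.19 to 6.49 in 8uvmo-2. It was 5.91 to 6.02 in 8uvmo-3, 5.75 to 5.78 in sAg3 and 5.67 to 5.97 in CD8bm1. In dormant IL13+ against IL13-negative clones 2 were called as lower and 0 as higher (2.33% and 1.02%). Of 8 dendritic cell markers 5 reached 7 in some group. The mean over the list was 6.77 to 8.27 in activated arrays and 6.06 to 6.80 in dormant arrays. Their median activation difference was 0.70, and 0.29 after each array was centred on its median. The same medians were 0.85 and 0.44 for the B cell markers and 0.59 and 0.18 for the stromal markers, so this move was not particular to dendritic cell markers. On the mean of the clones 2 dendritic cell markers were called as higher (4.57% of all tested probe sets were), Cd74 (2.43 ± 0.18) and Batf3 (1.21 ± 0.068, and 0.80 relative to the array medians). Within 8uvmo-2, 4 of them were called as higher, where 11.9% of tested probe sets were called in either direction. The subset markers Xcr1 and Siglech lay at 5.22 to 5.58 and 6.08 to 6.29 in all groups. Of 8 stromal markers 4 reached 7, their means were 6.79 to 7.18 in activated arrays and 6.20 to 6.53 in dormant arrays, and only Epcam was called, at 1.14 ± 0.032 and 0.72 relative to the array medians. The part of these markers in the results was not tested. Values below 7 are called dim here, since 6.57 was the median of all values, although no background was measured, and differences from such a level can be compressed. Activated arrays lay higher as a whole: array medians over all rows were 6.68 to 6.80 in activated arrays and 6.21 to 6.41 in dormant arrays. Over the tested probe sets the median difference was 0.35, with 0.51 for dim probe sets and -0.04 for those averaging at least 9. Differences are therefore also given relative to the array medians, that is, after each array was centred on its own median. The 4 dormant 8uvmo-2 arrays formed pairs, replicates 1 with 3 (r = 0.9974) and 2 with 4 (r = 0.9973), against 0.9858 to 0.9894 across the pairs.

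Anti-CD3 activation addresses which ligand genes respond when the T cell receptor complex is engaged. Averaged over the 5 clones, Tnf, Tnfsf11, Tnfsf14, Tnfsf8 and Tnfsf4 rose, and Ltb and Tnfsf10 fell. These 7 of 10 members passed an adjusted p under 0.05 and a log2 difference of at least 1 with an equal sign in every clone, a rule that 6.2% of all tested probe sets met (4.57% higher, 1.64% lower). The median difference of the members was 1.24, and that of all tested probe sets was 0.35. Relative to the array medians 5 members kept the call (6.75% of tested probe sets met the rule there), and those that lost it were Tnf, which then fell short of an equal sign in sAg3, and Tnfsf8. The members that did not pass were Lta, whose sign differed in CD8bm1, and Fasl and Cd40lg, whose mean differences were 0.21 ± 0.064 and 0.77 ± 0.040 (SE). The clones were unequal in how many members passed their own test of activation, without a condition on other clones. Clone sAg1 had 7 members called (background 10.8% of tested probe sets), sAg3 had 4 (5.04%), 8uvmo-2 had 6 (11.9%), 8uvmo-3 had 6 (10.1%) and CD8bm1 had 2 (7.27%). After centring the counts were 7 for sAg1 (9.54%), 2 for sAg3 (4.77%), 6 for 8uvmo-2 (11.9%), 6 for 8uvmo-3 (10.8%) and 0 for CD8bm1 (8.71%), so both calls in CD8bm1 were lost, while 7 members had an unadjusted p under 0.05 there in limma. Activated and dormant arrays that do not overlap are common here, at 79.8% of tested probe sets for sAg1, 73.8% for sAg3, 71.1% for 8uvmo-2, 77.9% for 8uvmo-3 and 69.1% for CD8bm1.

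**Figure D1:**
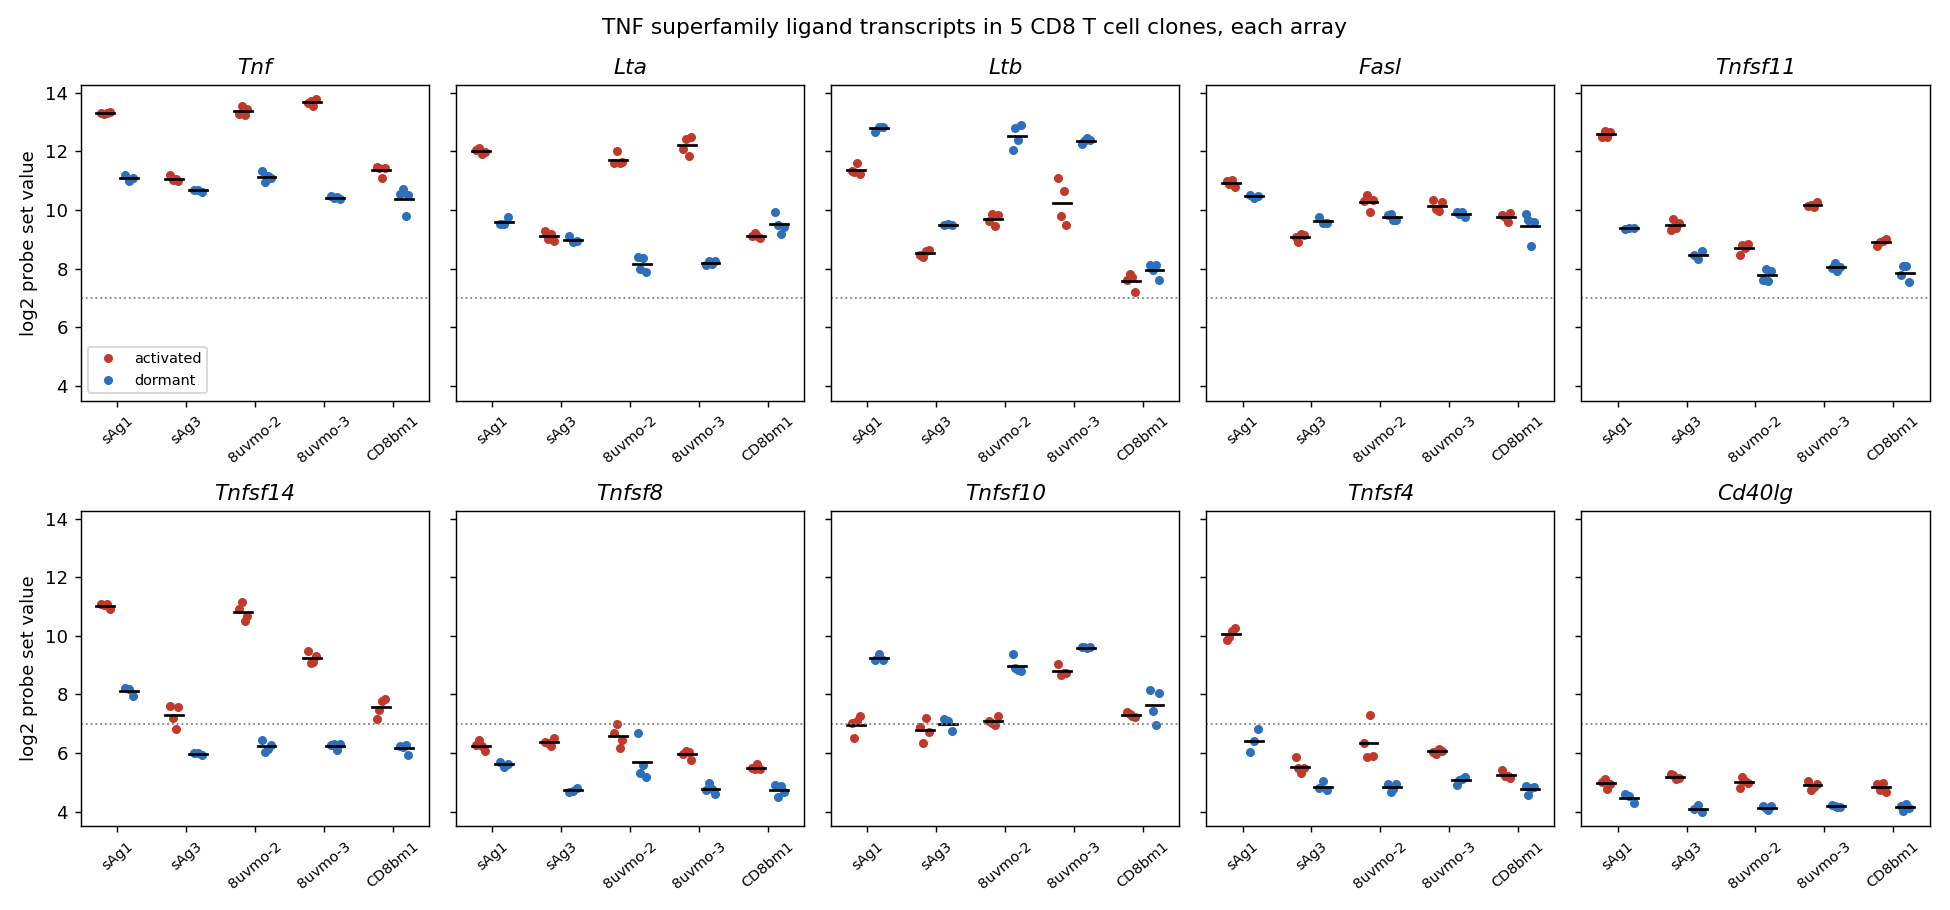
Log2 level of each of the 10 ligand genes (panels) in every array, by clone along the horizontal axis, with activated arrays left of dormant arrays, points for arrays, short lines for group means and a dotted line at 7. Tnf, Lta and Tnfsf14 of sAg1, 8uvmo-2 and 8uvmo-3 stand far apart between the states, while those of sAg3 and CD8bm1 lie close together, and levels should not be compared between panels because each gene has its own probes.

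Tnf encodes the prototype cytokine of the family, and its level after activation split the clones into 2 sets. In sAg1, Tnf was at 13.31, 13.28, 13.30 and 13.34 in activated arrays, against 11.20, 10.99 and 11.11 in dormant arrays. Clone 8uvmo-2 had 13.29, 13.54, 13.23 and 13.46 in activated arrays, against 11.32, 10.97, 11.17 and 11.08 in dormant arrays. For 8uvmo-3 the values were 13.67, 13.73, 13.55 and 13.78 in activated arrays, against 10.48, 10.41, 10.43 and 10.38 in dormant arrays. In these 3 clones the lowest activated array was at 13.23 and the highest dormant array at 11.32. Tnf in sAg3 was at 11.19, 11.02, 11.07 and 11 in activated arrays, against 10.69, 10.70 and 10.63 in dormant arrays. In CD8bm1 it was at 11.47, 11.45, 11.11 and 11.42 in activated arrays, against 10.54, 10.72, 9.79 and 10.52 in dormant arrays. The states did not overlap in these clones either, although they lay much closer, and 1 activated CD8bm1 array stood below its fellows. The differences of activated minus dormant were 2.21 ± 0.12 in sAg1, 2.25 ± 0.11 in 8uvmo-2 and 3.26 ± 0.11 in 8uvmo-3, against 0.40 ± 0.12 in sAg3 and 0.97 ± 0.11 in CD8bm1. The first 3 were called, as folds of 4.62, 4.74 and 9.56, and in sAg3 the difference relative to the array medians was -0.05 (adjusted p = 0.763). CD8bm1 fell just short of the minimum of 1, and it passed in 4 of the fits with 1 CD8bm1 array left out, with 1.01 to 1.08.

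Lta, the gene of lymphotoxin alpha, showed the widest spread of activation among the members. Its levels in sAg1 were 12.06, 12.13, 11.92 and 11.99 in activated arrays, against 9.52, 9.53 and 9.76 in dormant arrays. In 8uvmo-2 they were 11.61, 12.03, 11.61 and 11.65 in activated arrays, against 8.40, 7.99, 8.36 and 7.89 in dormant arrays. Clone 8uvmo-3 gave 12.08, 12.43, 11.84 and 12.49 in activated arrays, against 8.13, 8.27, 8.17 and 8.25 in dormant arrays. Activation raised Lta in all 3 clones, by 2.42 ± 0.14, 3.57 ± 0.13 and 4.01 ± 0.13, or 5.36-, 11.8- and 16.1-fold. In sAg3, Lta was at 9.27, 9.02, 9.19 and 8.95 in activated arrays, against 9.10, 8.91 and 8.94 in dormant arrays. CD8bm1 had 9.12, 9.22, 9.13 and 9.04 in activated arrays, against 9.95, 9.48, 9.20 and 9.42 in dormant arrays. The states overlapped in both, and the differences were 0.12 ± 0.14 (adjusted p = 0.438) in sAg3 and -0.39 ± 0.13 (adjusted p = 0.00873) in CD8bm1, which is short of the minimum of 1. The mean over the 5 clones was 1.95 ± 0.061, and no call was made because the signs differed. Among dormant cells the 8uvmo clones lay lowest, with means of 8.16 and 8.21.

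Ltb, which encodes the partner that anchors lymphotoxin alpha in the membrane, moved the other way. In sAg1, Ltb read 11.33, 11.30, 11.62 and 11.22 in activated arrays, against 12.67, 12.85 and 12.85 in dormant arrays. Clone 8uvmo-2 read 9.63, 9.87, 9.45 and 9.84 in activated arrays, against 12.04, 12.79, 12.38 and 12.89 in dormant arrays. In 8uvmo-3 the gene read 11.08, 9.80, 10.66 and 9.49 in activated arrays, against 12.27, 12.36, 12.47 and 12.38 in dormant arrays. Every activated array of these clones lay below every dormant array of the same clone, and activated 8uvmo-3 was the most spread group, with replicates 1 and 3 high and 2 and 4 low. In sAg3 it read 8.47, 8.40, 8.59 and 8.65 in activated arrays, against 9.49, 9.54 and 9.48 in dormant arrays. In CD8bm1 the values were 7.61, 7.82, 7.71 and 7.21 in activated arrays, against 8.11, 7.95, 8.13 and 7.61 in dormant arrays, and the states overlapped there. Ltb fell by 1.42 ± 0.22 in sAg1, by 2.83 ± 0.21 in 8uvmo-2 and by 2.11 ± 0.21 in 8uvmo-3. In sAg3 the difference was -0.98 ± 0.22, just short of the minimum of 1 on the deposited scale and called relative to the array medians, at -1.42. CD8bm1 was at -0.36 ± 0.21 (adjusted p = 0.107). Dormant levels split the clones, with means of 12.37 to 12.79 in sAg1, 8uvmo-2 and 8uvmo-3, against 9.50 in sAg3 and 7.95 in CD8bm1.

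Over the 10 group means Pearson's r between Tnf and Lta was 0.93, and it was 0.05 between Tnf and Ltb and -0.07 between Lta and Ltb. These coefficients describe 10 groups that share clones, and no test was attached to them.

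Tnfsf14, the gene of the costimulator LIGHT, had the largest mean difference of the members. In sAg1 it was at 11.07, 11.04, 11.09 and 10.90 in activated arrays, against 8.23, 8.17 and 7.94 in dormant arrays. In 8uvmo-2, Tnfsf14 was at 10.93, 11.17, 10.50 and 10.68 in activated arrays, against 6.45, 6.05, 6.14 and 6.29 in dormant arrays. The values in 8uvmo-3 were 9.49, 9.06, 9.12 and 9.30 in activated arrays, against 6.26, 6.31, 6.12 and 6.31 in dormant arrays. Only dormant sAg1 was above 7 among the dormant groups of all clones. In sAg3 the gene was at 7.61, 7.21, 6.83 and 7.56 in activated arrays, against 5.99, 6 and 5.94 in dormant arrays. In CD8bm1 it had 7.16, 7.48, 7.79 and 7.85 in activated arrays, against 6.25, 6.21, 6.29 and 5.95 in dormant arrays. No activated array overlapped with the dormant arrays of its clone. The differences were 2.91 ± 0.16 in sAg1, 4.59 ± 0.15 in 8uvmo-2, a 24.0-fold difference, and 2.99 ± 0.15 in 8uvmo-3, against 1.33 ± 0.16 in sAg3 and 1.40 ± 0.15 in CD8bm1. All 5 were called, and after centring those of sAg3 and CD8bm1 were 0.88 and 0.94 and were not. The mean over the clones was 2.64 ± 0.067 and 2.23 relative to the array medians.

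Tnfsf4 encodes OX40L, which is best known on antigen-presenting cells and is also made by activated T cells. It was above the dim level as a group mean only in activated sAg1. There it was at 9.87, 9.95, 10.15 and 10.25 in activated arrays, against 6.05, 6.40 and 6.83 in dormant arrays. In 8uvmo-2 the values were 6.36, 5.88, 7.31 and 5.89 in activated arrays, against 4.94, 4.68, 4.77 and 4.96 in dormant arrays, and 1 activated array exceeded 7. In the other 3 clones the activated arrays ran from 5.15 to 6.15 and the dormant arrays from 4.56 to 5.17. Activation differences were 3.63 ± 0.20 in sAg1, a 12.4-fold difference, and 1.52 ± 0.18 in 8uvmo-2, both called. They were 0.68 ± 0.20 in sAg3, 0.98 ± 0.18 in 8uvmo-3 and 0.48 ± 0.18 in CD8bm1, under the minimum of 1. Relative to the array medians sAg1 and 8uvmo-2 kept the call, at 3.31 and 1.11, and sAg3 and 8uvmo-3 were at 0.24 and 0.55. CD8bm1 was then at 0.025 ± 0.18 (limma adjusted p = 0.913). The equal sign in every clone, which the mean call needs, thus rested after centring on a value near none.

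Tnfsf11 encodes RANKL, the ligand that drives osteoclast formation and is also made by T cells. In sAg1, Tnfsf11 stood at 12.50, 12.69, 12.50 and 12.68 in activated arrays, against 9.35, 9.40 and 9.39 in dormant arrays. Clone sAg3 stood at 9.31, 9.70, 9.38 and 9.56 in activated arrays, against 8.47, 8.32 and 8.59 in dormant arrays. In 8uvmo-3 the level was 10.15, 10.16, 10.12 and 10.27 in activated arrays, against 8.03, 8.19, 7.91 and 8.06 in dormant arrays. Activated sAg1 was the highest group, 2.42 above activated 8uvmo-3, the next in order. In 8uvmo-2 the level was 8.46, 8.82, 8.70 and 8.85 in activated arrays, against 7.61, 7.99, 7.59 and 7.91 in dormant arrays. CD8bm1 stood at 8.77, 8.91, 8.95 and 9.01 in activated arrays, against 7.78, 8.08, 8.08 and 7.53 in dormant arrays. All 5 clones had every activated array above every dormant one. The differences were 3.21 ± 0.12 in sAg1, a 9.27-fold difference, 1.03 ± 0.12 in sAg3, 2.13 ± 0.11 in 8uvmo-3, 0.93 ± 0.11 in 8uvmo-2 and 1.04 ± 0.11 in CD8bm1. Only the value of 8uvmo-2 missed the minimum of 1, and centring left sAg1 and 8uvmo-3 called. In 8uvmo-2 it was 1.11 against dormant replicates 1 and 3 and 0.76 against replicates 2 and 4. The call in sAg3 was lost without dormant or activated sAg3 replicate 2, at 0.96 in both fits, and that in CD8bm1 without dormant replicate 4, at 0.93.

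Tnfsf8 (CD30L) and Cd40lg (CD40L, which in T cells is chiefly a helper molecule of CD4 cells) were dim in all 10 groups. Group means of Tnfsf8 were 5.51 to 6.58 in activated cells and 4.73 to 5.70 in dormant cells, and those of Cd40lg were 4.83 to 5.20 in activated cells and 4.10 to 4.48 in dormant cells. Their mean differences of 1.03 ± 0.085 and 0.77 ± 0.040 are to be read beside the 0.51 by which dim probe sets differed in the middle, and relative to the array medians they were 0.61 and 0.35. Within clones, Tnfsf8 was called in sAg3 at 1.64 ± 0.20, which held relative to the array medians (1.20), and in 8uvmo-3 at 1.20 ± 0.18, which did not (0.76). Cd40lg was called in sAg3 alone, at 1.09 ± 0.093, and centring took it to 0.65. Tnfsf8 and Cd40lg thus made up 2 of the 4 members called in sAg3, the others being Tnfsf11 and Tnfsf14. On the mean of the clones the Tnfsf8 call was lost without dormant 8uvmo-2 replicate 4 (0.99) or activated 8uvmo-2 replicate 2 (1.00). In dormant 8uvmo-2 the gene was 0.90 higher in replicates 1 and 3 than in 2 and 4, mostly through replicate 1 at 6.70.

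The death ligand genes differed from one another. Tnfsf10, the gene of TRAIL, fell on average, and it did so most in sAg1 and 8uvmo-2. In sAg1 the values of Tnfsf10 were 7.01, 6.52, 7.10 and 7.26 in activated arrays, against 9.19, 9.39 and 9.17 in dormant arrays. In 8uvmo-2 the values of this gene were 7.10, 7.02, 6.97 and 7.25 in activated arrays, against 9.37, 8.91, 8.85 and 8.80 in dormant arrays. In 8uvmo-3 the values were 9.03, 8.65, 8.74 and 8.73 in activated arrays, against 9.61, 9.61, 9.57 and 9.61 in dormant arrays. The states stood apart in these 3 clones, with activated arrays below. The same gene in sAg3 had 6.89, 6.36, 7.18 and 6.73 in activated arrays, against 7.15, 7.09 and 6.76 in dormant arrays. In CD8bm1 the gene had 7.39, 7.33, 7.28 and 7.24 in activated arrays, against 8.14, 7.42, 6.96 and 8.04 in dormant arrays. Those arrays overlapped, and dormant sAg3 lay at the edge of the dim range. The differences were -2.28 ± 0.19 in sAg1 and -1.90 ± 0.18 in 8uvmo-2, both called, and -0.81 ± 0.18 in 8uvmo-3, -0.21 ± 0.19 in sAg3 (adjusted p = 0.331) and -0.33 ± 0.18 in CD8bm1 (adjusted p = 0.0904). Relative to the array medians the difference in 8uvmo-3 was -1.25 and called, and those in sAg3 and CD8bm1 were -0.66 and -0.79.

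Fasl, whose product kills Fas-bearing target cells, was present in every group, and its differences between states stayed under the minimum of 1. Group means were 9.08 to 10.93 in activated cells and 9.47 to 10.47 in dormant cells. In sAg1 the Fasl arrays read 11, 10.90, 11.02 and 10.80 in activated arrays, against 10.52, 10.41 and 10.47 in dormant arrays. In sAg3 the Fasl arrays read 9.08, 8.90, 9.17 and 9.16 in activated arrays, against 9.76, 9.55 and 9.56 in dormant arrays. Activated arrays lay above dormant ones in sAg1 and below them in sAg3, with differences of 0.46 ± 0.15 and -0.55 ± 0.15, and neither met the minimum of 1. Relative to the array medians the sAg1 difference was 0.14 ± 0.16 (limma adjusted p = 0.436). The sAg3 difference was then -0.99 ± 0.16, just short of the minimum. The differences in 8uvmo-2, 8uvmo-3 and CD8bm1 were 0.52, 0.29 and 0.31, and the mean over the clones was 0.21 as deposited and -0.21 relative to the array medians.

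**Figure D2:**
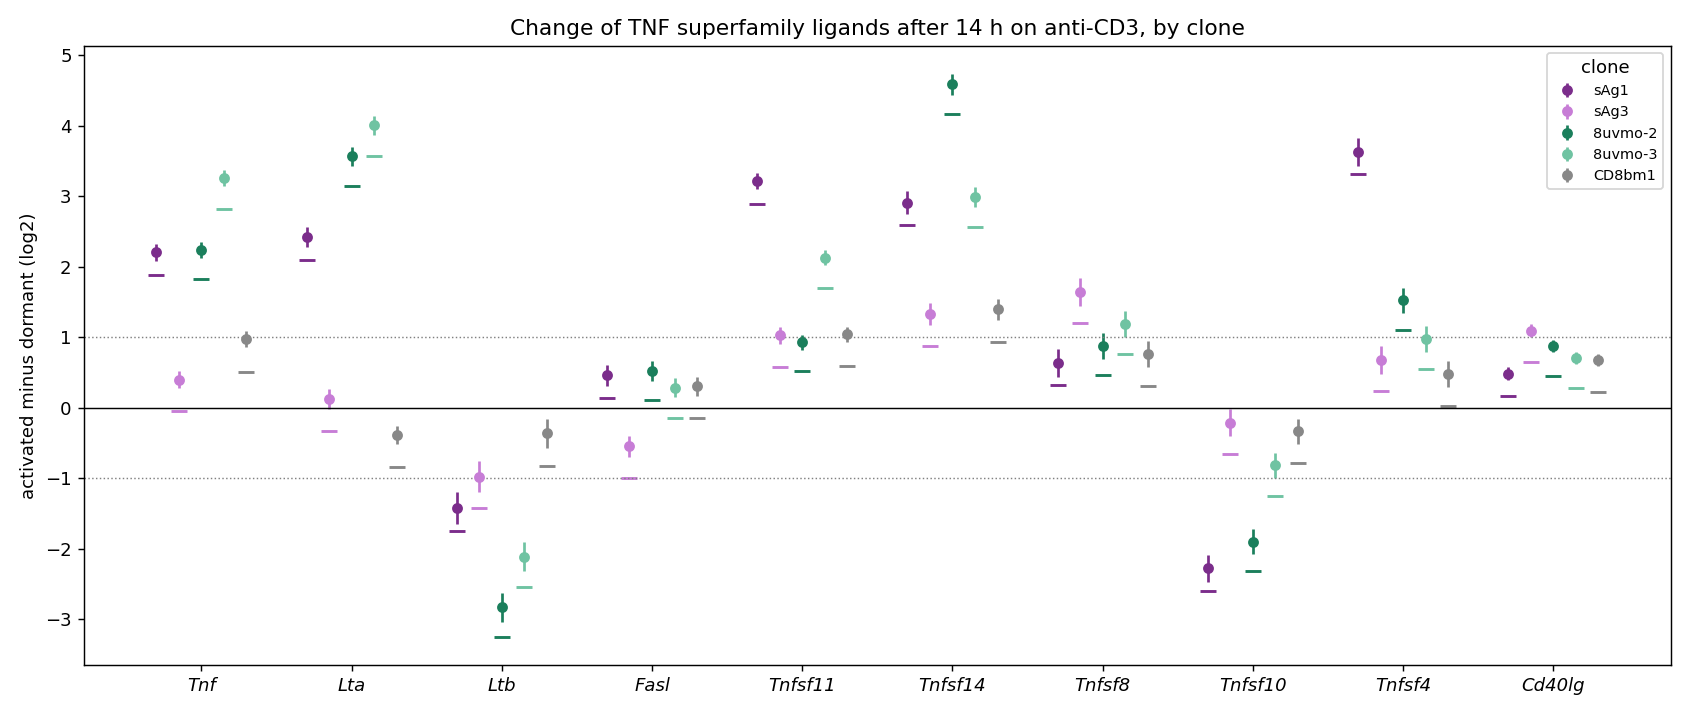
Activated minus dormant difference (log2, vertical axis) of each ligand gene in each clone, with points as deposited, bars of 1 SE of the contrast, short horizontal marks for the difference relative to the array medians and dotted lines at 1 and -1. Lta spans from 4.01 in 8uvmo-3 to -0.39 in CD8bm1, and Ltb and Tnfsf10 are the genes below 0 in all clones.

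The clones differed in how strongly the ligand genes responded. The test of equal activation differences in the 5 clones was passed by 9 of 10 members with a spread of at least 1, a rule met by 14.4% of tested probe sets, and Cd40lg, with a spread of 0.61, was the exception. The spread between the highest and lowest clone was 4.39 for Lta, 3.26 for Tnfsf14, 3.15 for Tnfsf4, 2.86 for Tnf and 2.47 for Ltb. For Tnf and Tnfsf14 sAg3 had the lowest difference, and for Lta and Tnfsf4 CD8bm1 had it. When the clones were put in order of their mean within a state, 19 of the 40 steps between neighbours had an adjusted p under 0.05 in activated cells (background 14% of such steps) and 14 of 40 in dormant cells (17.8%). For activated Tnf the order was 8uvmo-3, 8uvmo-2, sAg1, CD8bm1 and sAg3, and the step from 8uvmo-2 to sAg1, of 0.07, did not pass (adjusted p = 0.769). For activated Lta the order was 8uvmo-3, sAg1, 8uvmo-2, CD8bm1 and sAg3, and only the step of 2.60 between 8uvmo-2 and CD8bm1 passed. Activated Ltb ran from sAg1 through 8uvmo-3, 8uvmo-2 and sAg3 to CD8bm1, and every step passed. Dormant Tnf varied little, with clone means of 10.39 to 11.14.

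The 2 IL13+ clones stood far apart in these genes. Activated sAg1 was higher than activated sAg3 with an adjusted p under 0.05 for 7 members, against 18.9% of tested probe sets, and Cd40lg was lower at -0.23 (16.5% of probe sets were lower). All 7 differences exceeded 1, which 2.61% of tested probe sets did in this direction. They were 2.24 ± 0.11 for Tnf, 2.92 ± 0.13 for Lta, 2.84 ± 0.21 for Ltb, 1.85 ± 0.14 for Fasl, 3.11 ± 0.11 for Tnfsf11, 3.72 ± 0.15 for Tnfsf14 and 4.52 ± 0.18 for Tnfsf4. Tnfsf8 and Tnfsf10 did not pass, at -0.12 ± 0.18 and 0.18 ± 0.18. At rest all 10 members were higher in sAg1 than in sAg3 at an adjusted p under 0.05, against 18.6% of tested probe sets. Of these, 4 exceeded 1 (background 3.75%), namely Ltb at 3.29 ± 0.24, Tnfsf10 at 2.25 ± 0.21, Tnfsf14 at 2.14 ± 0.17 and Tnfsf4 at 1.57 ± 0.21. The separation of the IL13+ clones at rest was thus widest for Ltb, and after activation for Tnfsf4.

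**Figure D3:**
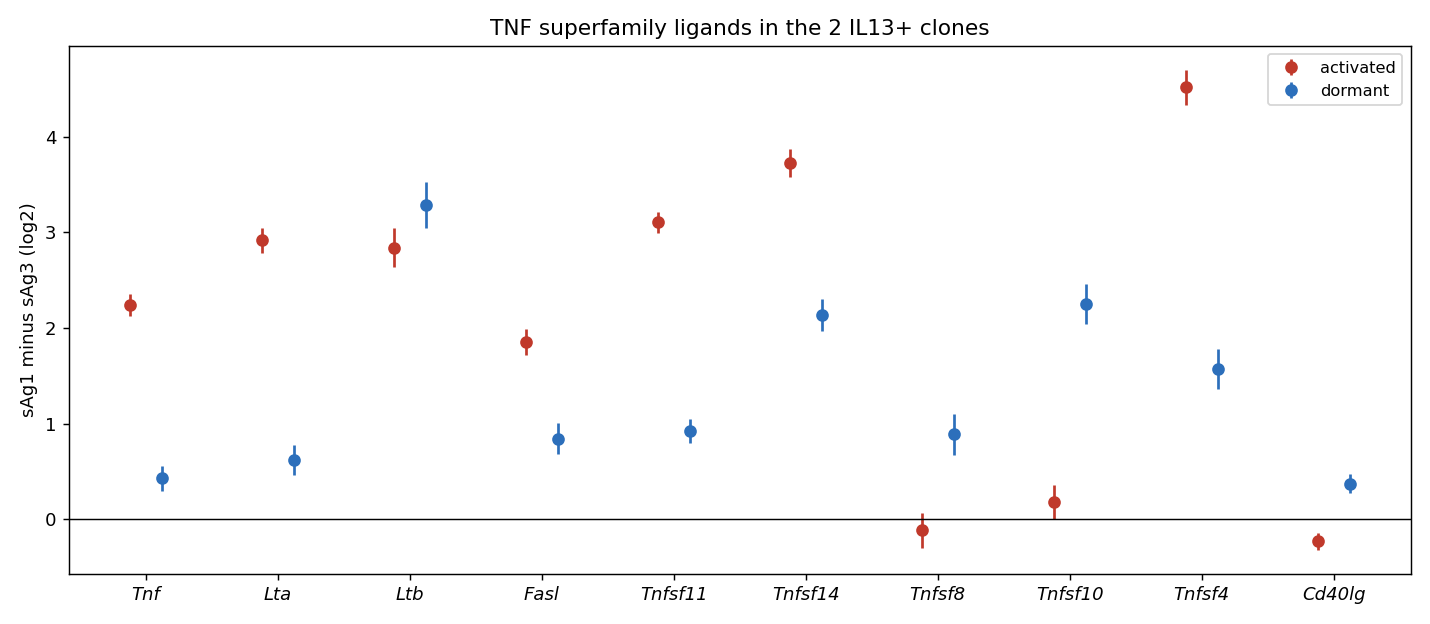
Difference sAg1 minus sAg3 (log2, vertical axis) of each ligand gene between the IL13+ clones, activated left of dormant, with bars of 1 SE. All dormant points lie above 0, and activated Tnfsf8 and Cd40lg lie at -0.12 and -0.23.

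Setting IL13+ against IL13-negative clones asks whether the phenotype label goes with the ligand genes. Among activated cells Tnf and Tnfsf10 were lower in the IL13+ clones, with differences of -1.34 ± 0.080 and -1.06 ± 0.13. These 2 of 10 members were called, against 1.75% of tested probe sets (1.09% lower, 0.666% higher), under a rule that also asks that the clone means of both labels lie apart. The helper marker genes Cd4 and Zbtb7b were higher on the mean of the IL13+ clones. The differences were 2.03 ± 0.11 and 0.65 ± 0.055 in activated cells, without a call, and 2.35 ± 0.12 (called) and 0.77 ± 0.059 in dormant cells. For activated Cd4 the clone means of the labels did not lie apart. In activated arrays the mean over both genes was 9.515 to 9.635 in sAg3 and 8.305 to 8.41 in sAg1. It was 8.03 to 8.44 in 8uvmo-2 and 6.935 to 7.055 in 8uvmo-3. The part of these marker genes in the ligand results was not tested. The Tnf difference lay mostly in sAg3. That clone alone differed from the mean of the IL13-negative clones by -2.46 ± 0.098, and sAg1 alone by -0.22 ± 0.098 (adjusted p = 0.107). The arrays of the labels overlapped for Tnf. Tnfsf10 was lower in each IL13+ clone taken alone, at -0.96 ± 0.16 in sAg1 and -1.15 ± 0.16 in sAg3, and its call was lost without activated sAg1 replicate 2 (-0.98) or activated sAg3 replicate 2 (-0.98). The separation also rested on 8uvmo-3, since activated sAg1 and 8uvmo-2 differed by -0.11 (adjusted p = 0.776). Members whose IL13+ clones fell on opposite sides were not called. Activated Lta was 0.06 ± 0.11 in sAg1 and -2.86 ± 0.11 in sAg3 relative to the IL13-negative mean. Activated Ltb was 1.39 ± 0.18 in sAg1 and -1.45 ± 0.18 in sAg3, so the clones cancelled to -0.03 ± 0.15. For Tnfsf11 and Tnfsf4 sAg1 alone gave 3.15 ± 0.093 and 3.85 ± 0.16, against 0.05 ± 0.093 and -0.67 ± 0.16 in sAg3.

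At rest Lta and Tnfsf11 were higher in the IL13+ clones, by 1.11 ± 0.10 and 1.01 ± 0.082. They were the 2 members called, against 3.35% of tested probe sets (1.02% higher, 2.33% lower). Dormant Lta arrays ran from 8.91 to 9.76 in the IL13+ clones and from 7.89 to 8.40 in the IL13-negative clones and did not overlap, as was so for 6.29% of tested probe sets. Dormant CD8bm1, at 9.20 to 9.95, reached the IL13+ range. Tnfsf11 ran from 8.32 to 9.40 in IL13+ arrays and from 7.59 to 8.19 in IL13-negative arrays, again with no overlap, but its difference stood at the minimum of 1. It was 0.96 relative to the array medians, and 0.98 to 0.99 without dormant sAg3 replicate 3, dormant 8uvmo-2 replicate 1 or 3, or dormant 8uvmo-3 replicate 3. With the clone in place of the array as the unit of replication in limma, neither phenotype comparison kept a member, and an unadjusted p under 0.05 was left for 0 members in activated cells and 1 in dormant cells.

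**Figure D4:**
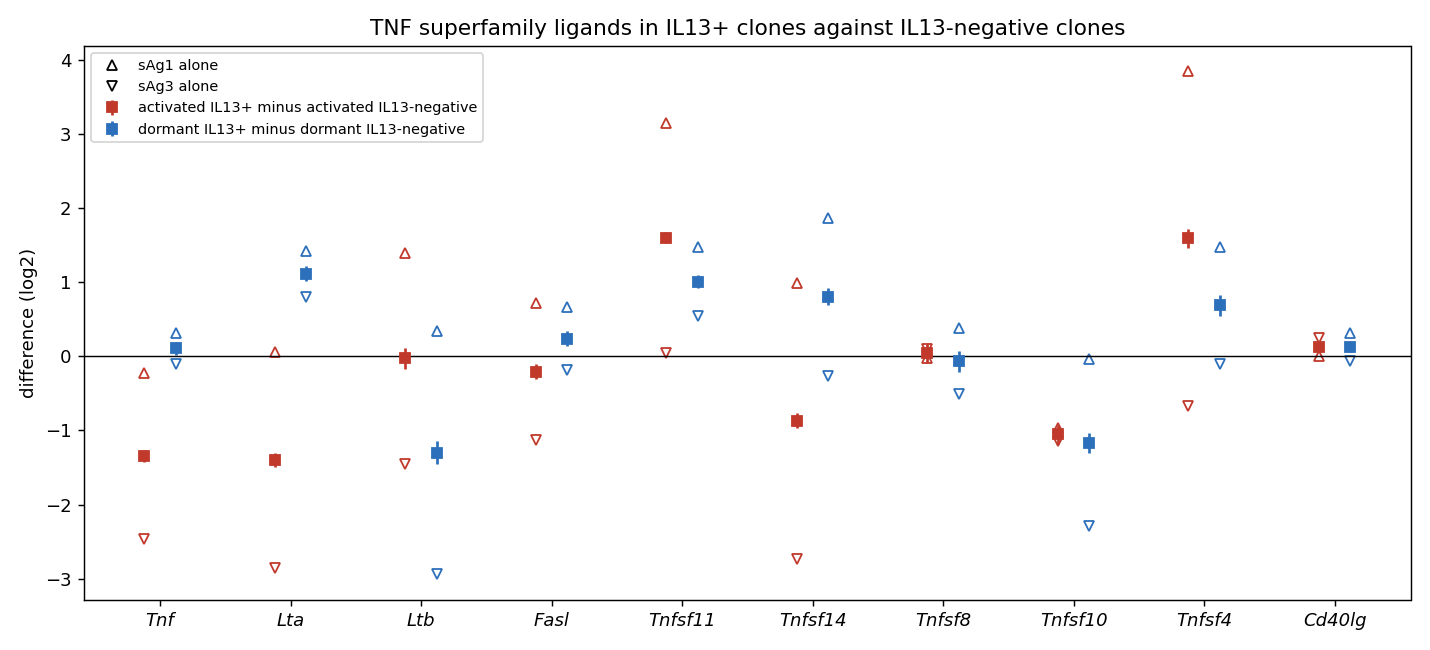
Difference of IL13+ minus IL13-negative clones (log2, vertical axis) for each ligand gene, in activated cells and in dormant cells, with squares and bars of 1 SE for the mean of both IL13+ clones and triangles for sAg1 or sAg3 alone. The triangles lie on opposite sides of 0 for activated Lta, Ltb, Fasl, Tnfsf14, Tnfsf8 and Tnfsf4.

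With arrays as replicates, the activation difference itself also differed by label. It was smaller in the IL13+ clones for Tnf (-1.45 ± 0.12), Lta (-2.51 ± 0.14) and Tnfsf14 (-1.67 ± 0.15), and for Ltb the fall was smaller (1.27 ± 0.22). These 4 of 10 members were called, against 1.95% of tested probe sets (0.56% lower, 1.39% higher). With the clone as the unit of replication in limma none of the 4 was called, and 1 member had an unadjusted p under 0.05. For Tnf the condition that the clones lie apart was met narrowly, since activation gave 2.21 in sAg1 and 2.25 in 8uvmo-2, and for Tnfsf14 narrowly as well, with 2.91 in sAg1 and 2.99 in 8uvmo-3. The Tnf call was lost without dormant sAg1 replicate 1, dormant 8uvmo-2 replicate 2 or activated 8uvmo-2 replicate 2, and the Tnfsf14 call without activated 8uvmo-3 replicate 1, while the differences kept their size (-1.42 and -1.63). Relative to the array medians only Lta and Ltb of these kept the call (background 2.01%). The centred differences of Tnf and Tnfsf14 were -1.41 and -1.63, close to the deposited ones, and their calls were lost because the clones of the labels no longer lay apart. Lta was thus the gene called for both a higher resting level and a smaller activation difference in the IL13+ clones. These are not separate results, since the resting level is part of the activation difference. Activated Lta in sAg1 differed from the IL13-negative mean by only 0.06 ± 0.11. CD8bm1 likewise had a high dormant mean of Lta (9.51) and an activation difference of -0.39.

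Of the other ligands of the superfamily 6 of 8 listed were measured, and averaged over the clones none met the rule for activation, with 4 higher and 2 lower at an adjusted p under 0.05 alone in limma. Tnfsf13b, which encodes the B cell survival factor BAFF, was higher in the IL13+ clones, by 2.00 ± 0.10 at rest and by 1.08 ± 0.094 after activation. It was the only other ligand called for phenotype (1.02% and 0.666% of tested probe sets were called as higher). Arrays were the replicates here, with 2 clones per label. For this gene sAg1 and sAg3 were not taken singly, and no value with the clone as the replicate is given. Tnfsf9, the gene of 4-1BBL, was higher in activated sAg1 by 1.30 ± 0.12, and relative to the array medians the difference was 0.99, under the minimum.

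Among 28 receptors of the superfamily 4 rose and 1 fell on activation (the shares of all tested probe sets were 4.57% and 1.64%), and their median difference was 0.56 against 0.35 for all tested probe sets. Tnfrsf12a, the receptor of TWEAK, rose by 1.63 ± 0.051, Fas, the receptor of FasL, by 1.38 ± 0.071, and Tnfrsf8, the receptor of CD30L, by 1.31 ± 0.073. Tnfrsf18 (GITR) fell by 1.32 ± 0.057. Relative to the array medians the balance turned, with 1 receptor higher and 2 lower, and the median was 0.15. Fas was then at 0.96 and Tnfrsf8 at 0.90, under the minimum. Tnfrsf9 (4-1BB) was among the receptors that differed most by activation within a clone, at 4.88 ± 0.30 in sAg1 and 4.85 ± 0.28 in 8uvmo-3. Tnfrsf4 encodes OX40, the receptor of OX40L. It was lower in the IL13+ clones, with differences of -3.67 ± 0.10 in activated cells and -2.59 ± 0.11 in dormant cells. In dormant IL13+ clones Tnfrsf22 (-1.73 ± 0.14) and Fas (-1.44 ± 0.12) were lower as well, and Tnfrsf11b was higher, at 1.83 ± 0.18. At rest 1 receptor was thus called as higher and 3 as lower (1.02% and 2.33% of tested probe sets). After activation Tnfrsf4 alone was called, as lower (1.09%). Arrays were the replicates here, with 2 clones per label, and sAg1 and sAg3 were not taken singly for these receptors.

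Of 18 measured transcription factors that act downstream of the T cell receptor, 7 rose and none fell on the mean of the clones, with a median difference of 0.62 (4.57% of all tested probe sets were called as higher and 1.64% as lower). Relative to the array medians 3 were higher and 1 lower, where 6.75% of tested probe sets were called in all, and the median was 0.21. Egr2 rose by 3.92 ± 0.049, Egr1 by 3.21 ± 0.051, and the NF-kB subunit genes Rel and Nfkb2 each by 1.64 (SE 0.042 and 0.031). In sAg3, 3 of the 18 were higher and none lower (background 5.04%), in sAg1 7 were higher and 1 lower (10.8%), and in 8uvmo-3 10 were higher and 1 lower (10.1%). After centring sAg3 had 2 higher and 2 lower, sAg1 had 7 and 1, and 8uvmo-3 had 6 and 1. Egr2 differed by 2.01 ± 0.11 in sAg3 and by 5.58 ± 0.11 in sAg1. Activated IL13+ clones were lower in Egr1 (-1.65 ± 0.079), Rel (-1.38 ± 0.064) and Nfatc1 (-1.31 ± 0.080). These 3 of 18 were the factors called there, and 1.09% of all tested probe sets were called as lower. Arrays were the replicates in this comparison of 2 clones per label, and sAg1 and sAg3 were not taken singly for these factors. Group means of Rel followed those of Tnf (r = 0.987), whose label difference lay mostly in sAg3.

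Of 17 measured adaptor and death signalling genes, 2 were called as higher and none as lower on the mean of the clones (background 4.57% and 1.64%), and relative to the array medians 1 was higher and 1 lower. Traf5 rose by 1.72 ± 0.062 and Traf4 by 1.05 ± 0.054, and Traf4 was at 0.64 relative to the array medians. The median of this list was 0.29 beside 0.35 for all tested probe sets. In sAg1 it was 0.57 beside 0.38, with 5 genes called as higher and none as lower (background 10.8%), and 3 higher after centring (9.54%). In sAg3 it was 0.11 beside 0.33, with none called as deposited (5.04%) or after centring (4.77%). At an adjusted p under 0.05 alone in limma 7 were higher and 2 lower in sAg3. The share of all tested probe sets is not given for that rule. Of 15 genes for ligand shedding and mRNA decay, 1 was called as higher and none as lower on the mean of the clones (background 4.57% and 1.64%). This gene was Zfp36, whose product tristetraprolin promotes decay of Tnf mRNA. It rose by 1.43 ± 0.050 in the mean, and it was called in sAg1, sAg3, 8uvmo-2 and CD8bm1, at 1.12, 1.73, 1.46 and 1.87. Relative to the array medians the sAg1 value was 0.80, under the minimum. Other genes of this list were called within single clones only. Rhbdf2 passed in sAg1 (1.22) and in the 8uvmo clones (1.10 for 8uvmo-2 and 1.18 for 8uvmo-3). Timp3 passed in sAg3 (1.06), and 8uvmo-2 also had calls for Timp3 (1.21) and Zfp36l1 (1.54). That clone thus had 4 of the 15 called (background 11.9%). After centring only Zfp36l1 among these other genes stayed above the minimum, at 1.13.

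The genes whose 10 group means were most like those of a member were ranked by Pearson's r among 7844 candidate probe sets that spanned at least 1 log2 unit, as a description without a test. For Tnf they were Rel (0.987), Slc15a3 (0.968) and Eea1 (0.965). For Lta they were Slamf1 (0.951), Eea1 (0.939) and Olr1 (0.937), and for Ltb Tpcn1 (0.973), Clec2d (0.966) and Amn1 (0.954). Tnfsf11 was most like Zfp827 (0.960), Dmxl2 (0.959) and Maged1 (0.947), and Tnfsf4 like Clip3 (0.958), Maged1 (0.958) and Ak1 (0.957). Tnfsf14 was most like Hsph1 (0.974), Ppp5c (0.972) and Ppid (0.959). For Tnfsf10 the genes were Pycard (0.953), Card6 (0.949) and Stim1 (0.940). Fasl, Tnfsf8 and Cd40lg spanned under 2 log2 units and were not ranked.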

How the data were processed

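The authors deposited 1 log2 value per probe set and array; the submitters' processing notes name Partek and RMA (robust multi-array averaging), without version or settings, and per the labels 100 ng of total RNA went into each labelling. Whether all arrays were normalized together is not given in the sources used here. The 38 arrays carry no depth, so their number limits the precision. Genes were named through the platform annotation (23410 of 35556 rows, all tested; 1621 with several symbols).

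Each probe set was fitted with limma (3.58.1, R 4.3.3), with 1 mean per clone and state and trended moderated variances, and p-values were two-sided and Benjamini-Hochberg adjusted over the 23410. A call needed an adjusted p under 0.05 and a difference of at least 1. In comparisons over several clones it also needed 1 sign in the 5 clones (activation) or clone values of the labels lying apart (phenotype and difference in activation). Errors of differences are SE of the contrast. No label says that arrays of a group came from separate cultures, so p-values measure the spread between arrays, which may be technical. The members and lists were chosen with earlier results of these data known. Named beside the members were up to 4 called genes per list and comparison, the largest first, and the 3 most like genes per member. On simulated data 198 to 200 of 200 changed genes were recovered in the activation comparisons, with at most 1 false call. The planted changes were all well past the minimum and equal in every clone, with independent noise and no shift of whole arrays. The simulation therefore does not cover differences near the minimum, the shift in scale between states or differences between clones. The labels give no pairing of arrays by replicate number, and none was used. Over 18 pairs of equal number the deviations correlated at -0.236 to 0.268, and 7 exceeded 0.1. These values do not settle whether arrays shared a culture or a batch. Alternatives covered the threshold, the scaling, the variance model, the replicate block, and arrays or clones left out.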

Additional observations from a re-analysis of the deposited data

Results flagged for a closer look

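Of 80 groups of 4 arrays, 3 held an array far from the others by Dixon's criterion, which chance gives in about 1 group of 20. They were Tnf in activated CD8bm1, where replicate 3 was at 11.11 and the others at 11.42 to 11.47, Lta in activated 8uvmo-2, where replicate 2 was at 12.03 and the others at 11.61 to 11.65, and Tnfsf10 in dormant 8uvmo-3, where replicate 3 was at 9.57 and the others at 9.61.

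With arrays as replicates, activation differed between labels for Tnf at -1.45, Lta at -2.51, Ltb at 1.27 and Tnfsf14 at -1.67. The test was of the difference of differences (IL13+ minus IL13-negative). With the clone as the replicate none of them was called, and relative to the array medians only Lta and Ltb were. Activation also differed among the 5 clones. The spread between the highest and the lowest clone was 2.86 for Tnf, 4.39 for Lta, 2.47 for Ltb, 1.07 for Fasl, 2.28 for Tnfsf11, 3.26 for Tnfsf14, 1.00 for Tnfsf8, 2.07 for Tnfsf10 and 3.15 for Tnfsf4.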

How the results depend on the processing

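Over 90 values, 10 members in 9 comparisons, 40 were called, and 1623 alternative values were computed. Of these, 1466 kept their side of the call and, where called, their direction, 73 lost the call, 56 gained it, 27 uncalled values changed sign by at least the SD between arrays, and 1 was called in the opposite direction. That was Ltb in activated IL13+ against IL13-negative clones, at 1.39 with clone sAg3 left out. Of the uncalled values 40 changed sign in all. The replicate numbers as a block changed no count of called members (7, 7, 4, 6, 6 and 2 for activation, 2 and 2 for phenotype, 4 for the difference in activation, 9 for the clones). No label says that these numbers pair the arrays. With this block the activated steps between neighbouring clones numbered 20.

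In sAg3 the count of 4 became 2 after centring on the array medians, 2 after quantile normalization, 2 with only probe sets averaging at least 7, 8 with no minimum difference, and 0 with limma's treat test against a difference of 1. In 8uvmo-2 it became 10 with no minimum difference. In CD8bm1 the count of 2 became 0 after centring, 1 after quantile normalization, 1 with array weights, 8 with no minimum and 0 with treat. For the counts with no minimum the share of all tested probe sets is not given here, so they are no result about the members. Arrays of the 2 states did not overlap for 73.8% of tested probe sets in sAg3, 71.1% in 8uvmo-2 and 69.1% in CD8bm1. For dormant IL13+ against IL13-negative clones the 2 became 1 with array weights, 1 after centring, 1 with dormant 8uvmo-2 replicates 2 and 4 alone, 4 without sAg3, 4 without the condition on the clones, and 0 with treat, with the clone as a random block and with the clone as the replicate. Unadjusted limma p-values under 0.05 were left for 2 members in sAg3 and 1 in CD8bm1 with treat, and in dormant IL13+ clones for 1 with treat, 3 with the random block and 1 with the clone as the replicate. For activated cells the 2 became 6 without sAg1, 5 without the condition, 1 with the random block, 1 with treat and 0 with the clone as the replicate. For the difference in activation the 4 became 2 after centring, 2 without 8uvmo-2, 2 with treat and 0 with the clone as the replicate. With the clone as the replicate, an unadjusted limma p under 0.05 was left for 0 members in activated cells and 1 for the difference. The cause was not tested where the alternative's own construction does not show it. With 1 array left out, the counts ran from 6 to 7 for the mean activation, 7 to 7 in sAg1, 3 to 5 in sAg3, 6 to 7 in 8uvmo-2, 6 to 7 in 8uvmo-3, 2 to 3 in CD8bm1, 1 to 2 in each phenotype comparison, 3 to 4 for the difference in activation and 8 to 9 for the clones. The steps between neighbours ran from 15 to 22 in activated and 13 to 15 in dormant cells.

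The limits are 2 clones per phenotype label and a scale on which activated arrays lie higher. Levels were also dim for Tnfsf8 and Cd40lg in all groups and for Tnfsf4 in 9 of 10 groups.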
